A study of Mus musculus with 9 samples.

Results

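The Notch family of mouse esophageal epithelial organoids was followed through 11 genes. These were the receptors Notch1, Notch3 and Notch4, the ligands Jag1, Jag2 and Dll1, and the Fringe enzymes Lfng and Rfng. With them were the target genes Hes1 and Nrarp, and Hes6, a relative of Hes1. They were chosen by name, as every Notch receptor, Delta or Jagged ligand, Fringe enzyme, Nrarp, Hes or Hey gene found in at least 1 of 3 tables of the authors' comparisons. Those tables hold 8742 genes, and each lists only genes with an authors' adjusted p under 0.05 for its pair of groups. The names cover 22 protein-coding genes of GENCODE M21. The other 11 (Notch2, Dll3, Dll4, Mfng, Hes2, Hes3, Hes5, Hes7, Hey1, Hey2 and Heyl) stood in none of the tables, so their levels were not analysed here. All 11 members had counts in all 9 libraries.

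Organoids are small self-organised cultures, here of esophageal epithelial cells, and all were harvested on day 7 after seeding with no treatment. There were 3 libraries per group. WT organoids were wild type, PN organoids carried the label of a Trp53 and Notch1 knockout, and PCN organoids that of a Trp53, Cdkn2a and Notch1 knockout. Both edited groups thus share the Trp53 and Notch1 labels. Here the sources do not give strain, age, the kind of edit, or whether a group was 1 clone or several cultures. A p-value therefore speaks only of the spread among libraries, which may be technical. The 6644 genes with counts in all 9 libraries held 11310224 to 11606093 counts per WT library, 10180026 to 11501569 per PN library and 10461778 to 11882139 per PCN library.

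The Notch1 label was checked first, because it is shared by both edited groups. Notch1 RNA was lower in both but remained in every library (values below), and RNA counted along the entire gene cannot tell whether the protein was disrupted. Trp53 RNA stood at 118 to 121 CPM (counts scaled to the effective library size that the authors' FPKM values imply) in WT. It was between 2.27 and 3.24 in PN and between 2.53 and 3.96 in PCN. Cdkn2a RNA was not lower under its label: WT libraries held 6.49 to 10.3 CPM, PN libraries 21.5 to 22.7 and the libraries labelled as its knockout 62.4 to 70.2. As the kind of edit is not given, this RNA level cannot tell whether the Cdkn2a protein was disrupted. The group is therefore called the libraries labelled PCN, and every direction drawn from it rests on that label.

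Of 10 markers of esophageal epithelium, 9 stood in the tables, and the 7 with counts in all 9 libraries (Krt14, Krt15, Trp63, Krt4, Krt13, Cdh1 and Epcam) summed to 30286–32369 CPM in WT, 8615–8974 CPM in PN and 10326–10680 CPM in the libraries labelled PCN. Krt13, a keratin of differentiating esophageal cells, was the most abundant of these in WT, with 15253–16542 CPM in WT, 2007–2149 CPM in PN and 2705–2856 CPM in the libraries labelled PCN. Members of the list of 10 went both ways. In PN against WT 2 were called higher and 3 lower. In the libraries labelled PCN against WT 3 were called higher and 4 lower. Of all genes, 36.4% were called in PN against WT (17.6% higher and 18.8% lower). In the libraries labelled PCN against WT 36.5% were called (17.5% higher and 19.0% lower). The list was chosen with earlier results of these data known, so its called share is no test. The basal keratin Krt15, with 300 ± 32 CPM in WT, rose to 731 ± 16 CPM in PN and 1644 ± 38 CPM in the libraries labelled PCN, while Krt4 and Krt13 fell. The part of these shifts in the receptor and target gene results was not tested. Of 8 fibroblast and 6 muscle and glia markers none stood in the tables. Of 6 columnar and ciliated cell markers 3 did, and the 2 with counts in all libraries, Krt18 and Cfap43, summed to 152–166 CPM in WT, 72.1–74.9 CPM in PN and 57.9–63.6 CPM in the libraries labelled PCN. The other, Krt8, was called higher in the libraries labelled PCN than in WT, at 3.05 ± 0.82 against 1.22 ± 0.59 CPM. In bulk RNA, fewer cells of a type and less RNA per cell cannot be told apart, which applies to each level below.

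Notch receptors are cut when a Delta or Jagged ligand on a neighbouring cell pulls on them. The freed intracellular part enters the nucleus, joins the DNA-binding protein RBPJ and switches on target genes, among them the repressor Hes1 and the feedback inhibitor Nrarp. In stratified squamous epithelia such as the esophagus, Notch signalling is known for moving basal cells towards differentiation, and loss of Notch1 is common in squamous tumours.

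Start regions are shown for Lfng, which was called higher in PN against WT and lower in the libraries labelled PCN against PN, and for Nrarp, a target gene lower in both edited groups than in WT. Both come from RefSeq windows (GRCm38.p6) that reach 250 bases upstream of a gene's start. The table holds windows for 10 of the 11 members (12 windows in all), and Hes1 is the other. Capitals mark matches to the RBPJ core TGGGAA in Lfng, and to the N-box CACNAG or the class C site CACGNG, letters that Hes proteins are known to bind, in Nrarp.
Lfng, chr5:140607091-140607319, plus strand: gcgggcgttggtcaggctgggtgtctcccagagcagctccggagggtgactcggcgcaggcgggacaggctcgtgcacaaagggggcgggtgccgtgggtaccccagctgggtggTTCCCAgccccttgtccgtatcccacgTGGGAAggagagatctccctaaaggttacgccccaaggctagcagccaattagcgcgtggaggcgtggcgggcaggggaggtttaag
Nrarp, chr2:25180508-25180757, plus strand: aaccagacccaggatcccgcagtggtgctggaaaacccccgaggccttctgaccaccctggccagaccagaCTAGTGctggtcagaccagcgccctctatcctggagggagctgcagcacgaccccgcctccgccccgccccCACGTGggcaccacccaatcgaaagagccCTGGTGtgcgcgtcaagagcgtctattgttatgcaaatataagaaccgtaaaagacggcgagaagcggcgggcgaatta

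The Lfng stretch ends at the last base before the gene's first annotated base in the authors' tables. It held the RBPJ core once as TGGGAA, starting 108 bases before the RefSeq start, and once in reverse complement as TTCCCA, starting 135 bases before it. Searched on both strands, the core was in 21.6% of all 32851 windows, and in both orientations in 1.28% of them. Among the 10 members with a window, Lfng was the 1 that held it. The N-box was in the windows of 6 of these members and in 36.7% of all windows, and the class C site in 7 members and in 23.5% of all windows. CACGAG counts for both of these motifs, and in Lfng the core overlaps the class C site CACGTG. These matches describe letters in a window and say nothing of binding.

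The listed receptors had less RNA in both edited groups. Notch1 (ENSMUSG00000026923, GRCm38 chromosome 2, 26457903 to 26516663), the receptor named in the knockout labels, was at 15.0, 19.5 and 17.1 FPKM in WT libraries 1 to 3 (FPKM is the authors' level per length of gene and size of library). In PN it was at 9.87, 10.8 and 10.4 FPKM, and in the libraries labelled PCN at 4.95, 5.40 and 4.67. The groups formed 3 steps with no overlap. Against WT, the log2 fold change of the counts was -0.72 ± 0.09 (SE) in PN (edgeR quasi-likelihood test, adjusted p = 2.9e-05) and -1.77 ± 0.10 in the libraries labelled PCN (adjusted p = 1.0e-08). Between the edited groups it was -1.05 ± 0.06 (adjusted p = 9.2e-15), so that the libraries labelled PCN held 48.2% of the Notch1 RNA of PN, although both carry the Notch1 label.

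Notch3 (chromosome 17, 32120820 to 32166880) is a receptor that is itself a Notch target in several cell types. Of the listed receptors it was the most abundant per length. It was at 41.1, 49.1 and 38.9 FPKM in WT, 22.8, 24.0 and 23.5 in PN, and 21.5, 21.7 and 21.9 in the libraries labelled PCN. Both edited groups lay below all WT libraries, with log2 fold changes of -0.86 ± 0.09 (adjusted p = 3.7e-06) and -0.98 ± 0.09 (adjusted p = 8.3e-07). It was not listed between the edited groups, where an additional fit over all 9 libraries gave -0.11 ± 0.08. All 6 edited libraries lay within 21.5 to 24.0 FPKM.

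Notch4 (chromosome 17, 34564268 to 34588503), a receptor best known from endothelium, had the lowest level and the widest relative change. Its reads numbered 151, 226 and 104 in WT, 18, 14 and 5 in PN, and 13, 4 and 7 in the libraries labelled PCN. As a level this was 1.34 ± 0.53 FPKM (SD, n = 3) in WT, 0.0892 ± 0.051 in PN and 0.0517 ± 0.026 in the libraries labelled PCN. No edited library reached the lowest WT library. The fold changes were -3.91 ± 0.42 (15.0 times lower, adjusted p = 2.6e-05) and -4.64 ± 0.40 (24.9 times lower, adjusted p = 1.3e-06). Between the edited groups Notch4 was not listed and the groups overlapped (log2 fold change -0.72 ± 0.61).

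Of 8 endothelial markers only Esam stood in the tables, at 11.7, 10.4 and 5.63 CPM in WT, 4.65–5.99 CPM in PN and 4.55–6.03 CPM in the libraries labelled PCN. It too was called lower in both edited groups (-0.84 ± 0.25 and -0.85 ± 0.25, adjusted p = 0.016 in each), with WT replicate 3 inside the edited range. The part of Esam-expressing cells in the Notch4 result was not tested. The macrophage marker Cd68, 1 of 7 leukocyte markers and the only one in the tables, stood at 94.0–119 CPM in WT, 23.8–27.0 CPM in PN and 15.0–16.9 CPM in the libraries labelled PCN, and its part in the results was not tested either.

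Summed per length, Notch1, Notch3 and Notch4 came to 61.5 ± 7.8 FPKM in WT, 33.9 ± 1.1 in PN and 26.7 ± 0.30 in the libraries labelled PCN. Notch1 made up 27.9% ± 2.0 of that sum in WT and 30.6% ± 0.46 in PN, with libraries at 26.1 to 30.1% and 30.1 to 30.9%. In the libraries labelled PCN its share was 18.7% ± 1.2. The ratio of Notch3 to Notch1 was accordingly 2.28–2.74 in WT, 2.22–2.31 in PN and 4.01–4.69 in the libraries labelled PCN. No test was made on these sums, which lack Notch2 and whose members were chosen with results known.

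**Figure D1:**
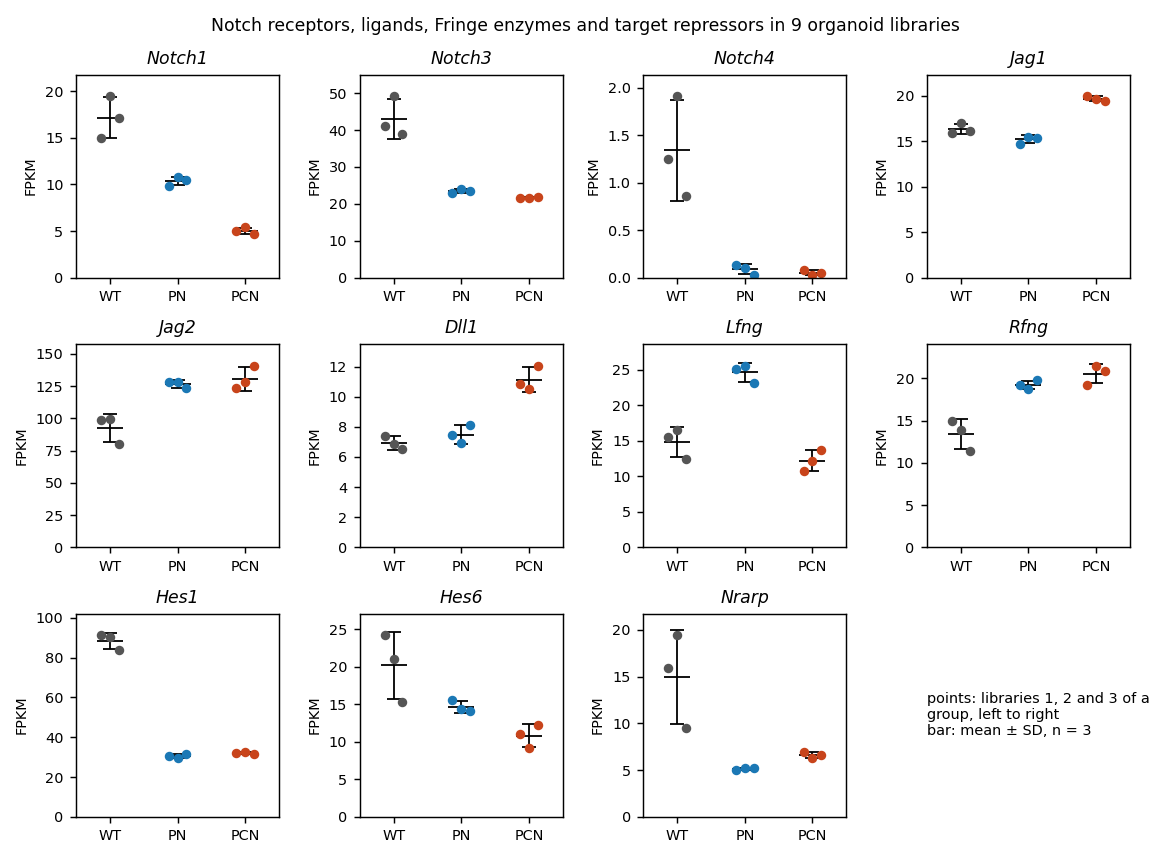
FPKM of each of the 11 genes (vertical axes from 0) in the 3 WT, 3 PN and 3 PCN libraries, with points for libraries 1 to 3 from left to right and bars for mean ± SD. Notch1 falls in 3 steps, from 15.0 to 19.5 in WT to 4.67 to 5.40 in the libraries labelled PCN, while Hes1 and Notch3 fall once and Lfng is highest in PN.

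Hes1, Hes6 and Nrarp were called lower than WT in both edited groups. Of all genes, 18.8% were called lower in PN and 19.0% in the libraries labelled PCN. The other Hes and Hey genes named by the rule were not listed, so their direction is not known. Hes1 (ENSMUSG00000022528, chromosome 16, 30064384 to 30067796), a repressor of the basic helix-loop-helix family, was at 91.3, 90.2 and 84.0 FPKM in WT. It was at 30.5, 29.5 and 31.6 FPKM in PN and at 32.0, 32.6 and 31.7 in the libraries labelled PCN. The WT libraries stood well apart from all edited ones. The log2 fold change was -1.52 ± 0.07 in PN (2.88 times lower, adjusted p = 2.9e-09) and -1.46 ± 0.07 in the libraries labelled PCN (2.75 times lower, adjusted p = 2.2e-09). Hes1 was not listed between the edited groups (0.07 ± 0.06), where the libraries labelled PCN, with less Notch1 RNA, lay just above PN.

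Nrarp (ENSMUSG00000078202, chromosome 2, 25180758 to 25183339), an ankyrin repeat protein that dampens the RBPJ complex, lies 1.27 Mb from Notch1. It was at 15.9, 19.4 and 9.55 FPKM in WT, 4.99, 5.18 and 5.24 in PN, and 6.98, 6.29 and 6.59 in the libraries labelled PCN. The 3 groups did not overlap, but the WT libraries spread widely while the edited libraries of a group lay close together. Against WT, Nrarp fell by 1.53 ± 0.23 on the log2 scale in PN (adjusted p = 4.7e-04), and by 1.17 ± 0.23 in the libraries labelled PCN (adjusted p = 0.0039). Nrarp was 1.29 times higher in the libraries labelled PCN than in PN (0.37 ± 0.10, adjusted p = 0.0063), against the direction of Notch1. That last call was lost when all 9 libraries shared 1 estimate of the spread (adjusted p = 0.45, the highest among the alternatives, whose lowest was 0.0060).

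Hes6 (chromosome 1, 91411483 to 91414038), a relative of Hes1 known as an antagonist of it, was at 24.2, 21 and 15.3 FPKM in WT. It was at 15.5, 14.3 and 14.1 FPKM in PN and at 11, 9.17 and 12.2 in the libraries labelled PCN. WT replicate 3 lay inside the PN range, and the libraries labelled PCN lay below both other groups. The fold changes were -0.45 ± 0.14 in PN (adjusted p = 0.023), -0.90 ± 0.16 in the libraries labelled PCN against WT (adjusted p = 8.6e-04) and -0.43 ± 0.10 between the edited groups (adjusted p = 8.2e-04). The call in PN was lost in 6 of 14 alternatives. These included leaving out WT replicate 1 (0.11), WT replicate 2 (0.097), PN replicate 2 (0.080) or PN replicate 3 (0.087), and the alternatives ranged from 5.8e-06 to 0.11. The call between the edited groups was lost in the fits over all 9 libraries (adjusted p = 0.062 and 0.058), in a range of 7.3e-05 to 0.062.

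No listed ligand was called lower than WT. Jag2 (chromosome 12, 112907819 to 112929776), the most abundant member per length in each group, was at 98.4, 99.5 and 80.3 FPKM in WT. It was at 128, 128 and 123 FPKM in PN and at 123, 128 and 141 in the libraries labelled PCN. All edited libraries lay above all WT libraries, with fold changes of 0.46 ± 0.08 (1.38 times higher, adjusted p = 6.4e-04) and 0.50 ± 0.09 (1.41 times higher, adjusted p = 5.7e-04). Jag2 was not listed between the edited groups (0.05 ± 0.08).

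Jag1 and Dll1 were higher in the libraries labelled PCN than in both other groups. Jag1 (chromosome 2, 137081456 to 137116644) was at 15.9, 17.0 and 16.1 FPKM in WT, 14.7, 15.5 and 15.4 in PN, and 19.9, 19.6 and 19.4 in the libraries labelled PCN. The rise was small: 0.27 ± 0.07 against WT (adjusted p = 0.0074) and 0.37 ± 0.05 against PN (adjusted p = 1.5e-06). Dll1 (chromosome 17, 15367354 to 15376872) was at 7.39, 6.85 and 6.53 FPKM in WT, 7.48, 6.90 and 8.10 in PN, and 10.8, 10.5 and 12.1 in the libraries labelled PCN. Its fold change there was 0.69 ± 0.09 against WT (adjusted p = 4.5e-05) and 0.57 ± 0.08 against PN (adjusted p = 5.2e-07). Neither ligand was listed in PN against WT, where the fit over all 9 libraries gave -0.10 ± 0.06 for Jag1 (-0.04 with TMM scaling) and 0.11 ± 0.09 for Dll1.

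The 3 ligands summed to 116 ± 11 FPKM in WT, 149 ± 2.3 in PN and 161 ± 9.5 in the libraries labelled PCN. Jag2 made up 79.8% ± 1.6, 84.8% ± 0.70 and 80.9% ± 0.86 of that RNA in the same order. RNA of these ligands per length was 1.75 to 2.12 times that of the listed receptors in WT libraries. The ratio was 4.31 to 4.58 in PN and 5.81 to 6.46 in the libraries labelled PCN. Notch2, Dll3 and Dll4 are in neither sum. Notch1 and Notch3 are parts of the receptor sum, so the fall of each by itself raises this ratio. Mean Notch3 was 43.0 FPKM in WT, 23.5 in PN and 21.7 in the libraries labelled PCN, and mean Notch1 was 17.2, 10.4 and 5.01. A ratio of chosen members carries no test.

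**Figure D2:**
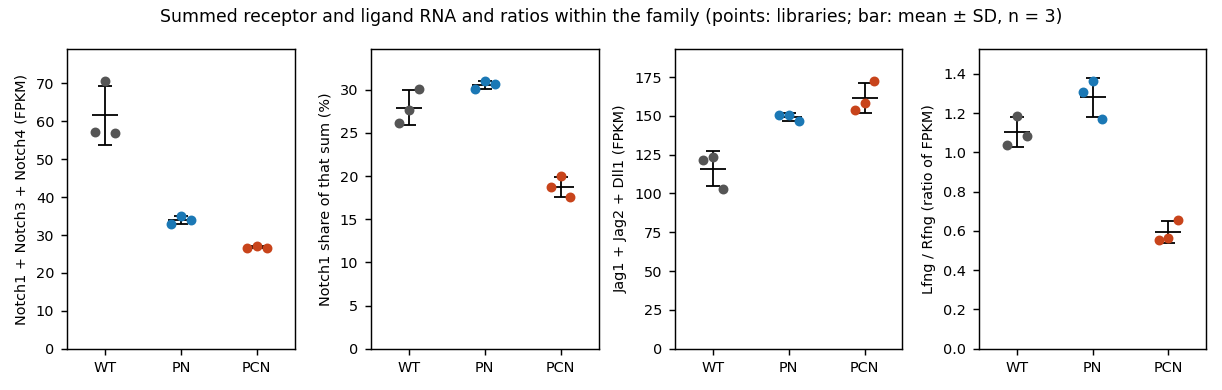
Summed FPKM of Notch1, Notch3 and Notch4 and the Notch1 share of that sum in percent. Also shown are summed FPKM of Jag1, Jag2 and Dll1, and the ratio of Lfng to Rfng. Each library is a point, with mean ± SD as bars (n = 3). The receptor sum is 61.5 ± 7.8 FPKM in WT and 26.7 ± 0.30 in the libraries labelled PCN. The Lfng to Rfng ratio separates the libraries labelled PCN, at 0.555 to 0.657, from all others.

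The Fringe enzymes add a sugar to Notch receptors in the Golgi. For Lfng this is known to shift the receptors' response from Jagged towards Delta ligands. The 2 listed enzymes behaved differently. Lfng (ENSMUSG00000029570, chromosome 5, 140607320 to 140615545), whose start region is printed above, was at 15.5, 16.5 and 12.4 FPKM in WT. It was at 25.1, 25.5 and 23.1 FPKM in PN and at 10.7, 12.1 and 13.7 in the libraries labelled PCN. PN stood above both other groups, which overlapped. Lfng rose by 0.74 ± 0.10 in PN against WT (1.67 times, adjusted p = 7.9e-05), and it was lower in the libraries labelled PCN than in PN by -1.01 ± 0.08 (2.02 times, adjusted p = 5.0e-11). It was not listed in the libraries labelled PCN against WT (-0.28 ± 0.11).

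Rfng (chromosome 11, 120780746 to 120784207) was at 14.9, 13.9 and 11.4 FPKM in WT, 19.2, 18.8 and 19.8 in PN, and 19.3, 21.5 and 20.9 in the libraries labelled PCN. It rose in both edited groups, by 0.53 ± 0.10 (adjusted p = 9.1e-04) and 0.62 ± 0.10 (adjusted p = 2.9e-04), and was not listed between them (0.09 ± 0.09). The ratio of Lfng to Rfng was 1.04–1.19 in WT, 1.17–1.36 in PN and 0.555–0.657 in the libraries labelled PCN.

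The order of levels per length also changed between groups. In WT, Jag2 and Hes1 overlapped at the top, followed by Notch3, and then 6 genes from Hes6 (20.2 ± 4.5 FPKM) through Notch1, Jag1, Nrarp and Lfng to Rfng (13.4 ± 1.8), each overlapping the next. Dll1 and Notch4 closed the order. In PN, Hes1 stood alone in second place, Lfng and Notch3 overlapped in the next places, and Nrarp was at rank 10 of 11. In the libraries labelled PCN, Notch1 was at rank 10, below Nrarp, and Notch3 overlapped Rfng, as Rfng did Jag1.

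The authors' deposited tables list 9 of the 11 members in PN against WT, 10 in the libraries labelled PCN against WT and 6 between the edited groups, beside 38.1%, 38.6% and 24.5% of the genes they adjusted over. In the refit all 9 were called in PN against WT, 3 higher and 6 lower, where 36.4% of those genes were called (17.6% higher and 18.8% lower). Of the 22 genes named by the rule this was 40.9%, close to that background. In the libraries labelled PCN against WT, 10 were called, 4 higher and 6 lower, or 45.5% of the 22 names, beside 36.5% of all genes (17.5% higher and 19.0% lower). Between the edited groups 6 were called, 3 higher and 3 lower, or 27.3% of the 22 names, beside 23.8% of all genes (12.3% higher and 11.5% lower). Which of the 22 the authors tested is not known, and the refit could only lose genes that were already listed. The median log2 fold change of the listed members was -0.72 in PN and -0.94 in the libraries labelled PCN against WT, beside -0.26 and -0.28 for all listed genes refitted. Between the edited groups it was -0.03, beside 0.16.

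Libraries did not overlap between the groups for 8 of the 9 listed members in PN against WT, where this held for 98.6% of all listed genes. It held for all 10 in the libraries labelled PCN against WT (98.2% of all listed genes) and for all 6 between the edited groups (97.8%). Both comparisons with WT share the same WT libraries, so their values above stand side by side and are not independent of each other.

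**Figure D3:**
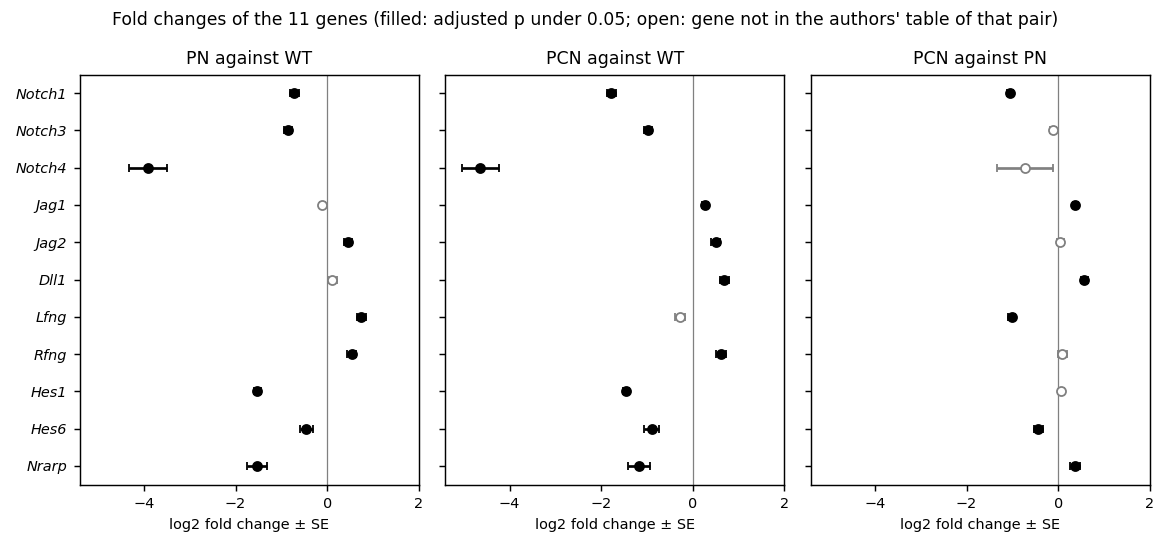
Log2 fold change ± SE of the 11 genes in the 3 comparisons, filled where the adjusted p was under 0.05 and open where the gene was outside the authors' table for that pair. Notch4 has the largest fall against WT in both edited groups (-3.91 and -4.64), and Lfng lies right of 0 in PN against WT and left of it in PCN against PN.

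WT replicate 3 was the lowest WT library for 9 of 11 members and the highest for none, and WT replicate 2 was the highest for 7. Replicate 3 also stood apart over 6362 to 6370 genes compared between WT libraries. The chi-square per degree of freedom was 29.7 against replicate 1 and 20.7 against replicate 2, and 10.6 between those. The share of all genes lowest in replicate 3 was not computed. Without WT replicate 3, the calls against WT stayed for all members called. Nrarp then changed by -1.77 ± 0.11 in PN (adjusted p = 7.2e-13) and -1.41 ± 0.11 in the libraries labelled PCN (adjusted p = 6.0e-16), Notch4 by -4.15 ± 0.32 and -4.88 ± 0.30, and Hes6 by -0.62 ± 0.09 and -1.06 ± 0.11. In the same fits Jag2 changed by 0.37 ± 0.06 and 0.40 ± 0.07.

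**Figure D4:**
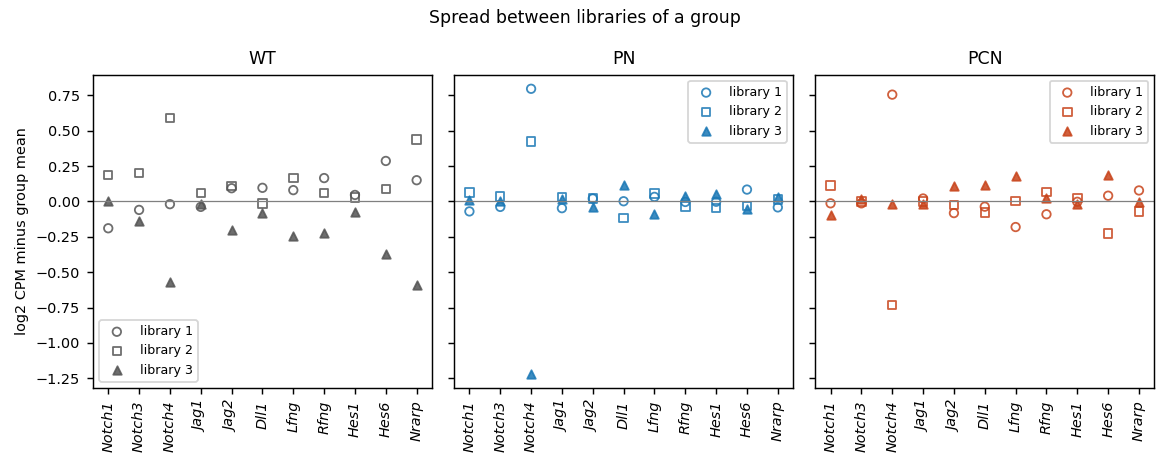
Log2 CPM of each library minus the mean of its group, for the 11 genes, with circles, squares and triangles for libraries 1, 2 and 3. In WT the triangles (replicate 3) are lowest for 9 of 11 genes, and in the edited groups Notch4, with 4 to 18 reads per library, has the widest spread.

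Other pathway genes changed in both directions. The list held 75 genes, 39 of them in any table. In PN against WT 14 were higher and 10 lower. In the libraries labelled PCN against WT 20 were higher and 10 lower, and between the edited groups 11 were higher and 6 lower. Called in either direction were thus 32.0%, 40.0% and 22.7% of the list, near the 36.4%, 36.5% and 23.8% of all genes. Medians of the listed genes were 0.27, 0.30 and 0.20 in that order. Between the edited groups the count fell to 10, 4 higher and 6 lower, in the fits over all 9 libraries.

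The DNA-binding partner Rbpj fell from 134 ± 17 CPM in WT to 64.4 ± 4.3 in PN (-1.05 ± 0.09, adjusted p = 1.3e-06). It was at 64.4 ± 3.5 CPM in the libraries labelled PCN (-1.06 ± 0.09, adjusted p = 6.8e-07). Gamma secretase is the complex that frees the receptor's intracellular part. Of 7 of its genes, 2 were called lower in PN and 3 in the libraries labelled PCN against WT, and none higher. These were 28.6% and 42.9% of the 7, beside 36.4% and 36.5% of all genes called, of either direction. Between the edited groups 1 was called higher and 1 lower. Psenen, a subunit, fell from 64.2 ± 9.7 to 42.3 ± 1.9 CPM in PN and 40.0 ± 2.4 in the libraries labelled PCN. Adam17, which sheds the outer part of membrane proteins, stood at 132 ± 10, 113 ± 1.6 and 65.6 ± 4.4 CPM in WT, PN and the libraries labelled PCN. Its fall between the edited groups was -0.78 ± 0.06 (adjusted p = 4.4e-12).

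Of 17 corepressor genes, 5 rose and 1 fell in PN, and 7 rose and 1 fell in the libraries labelled PCN against WT. Beside these 35.3% and 47.1% of the list stand 36.4% and 36.5% of all genes called. Of all genes, 17.6% and 17.5% were called higher, and 18.8% and 19.0% lower. The acetyltransferase Kat2a rose from 95.2 ± 8.3 CPM to 148 ± 1.7 and 166 ± 7.7. Crebbp, another acetyltransferase, rose from 44.3 ± 4.6 to 73.5 ± 4.6 CPM in the libraries labelled PCN, and Kat2b fell from 34.8 ± 3.8 to 22.3 ± 1.4 in PN. Nle1, named in some work as a Notch modulator, rose from 15.4 ± 1.4 to 22.8 ± 1.7 CPM in PN and 22.1 ± 2.7 in the libraries labelled PCN. Snw1, a coactivator of the RBPJ complex, was lower in the libraries labelled PCN (46.0 ± 3.0 CPM) than in PN (69.1 ± 2.7).

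Gxylt2, Tle6 and Neurl1b, like Lfng, were called in PN against both other groups. Gxylt2, a xylosyltransferase that extends a sugar on Notch receptors, fell from 24.1 ± 1.6 CPM in WT to 2.86 ± 0.66 in PN (-3.06 ± 0.16, adjusted p = 1.1e-08). In the libraries labelled PCN it was at 23.0 ± 1.4 CPM, higher than in PN by 3.01 ± 0.14 (adjusted p = 2.3e-16) and not listed against WT. Tle6, a Groucho family member, was at 6.53 ± 0.89, 2.44 ± 0.33 and 6.18 ± 1.1 CPM. The ubiquitin ligase Neurl1b, which acts on ligand uptake, rose from 25 ± 0.67 to 62.5 ± 5.4 CPM in PN (1.33 ± 0.09, adjusted p = 9.6e-08) and stood at 37.8 ± 3.0 in the libraries labelled PCN, above WT (0.60 ± 0.10) and below PN (-0.73 ± 0.07, adjusted p = 6.1e-09). Dtx3l and Kdelc2 (Poglut3) were higher in the libraries labelled PCN than in PN, by 0.54 ± 0.09 and 0.50 ± 0.10.

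**Figure D5:**
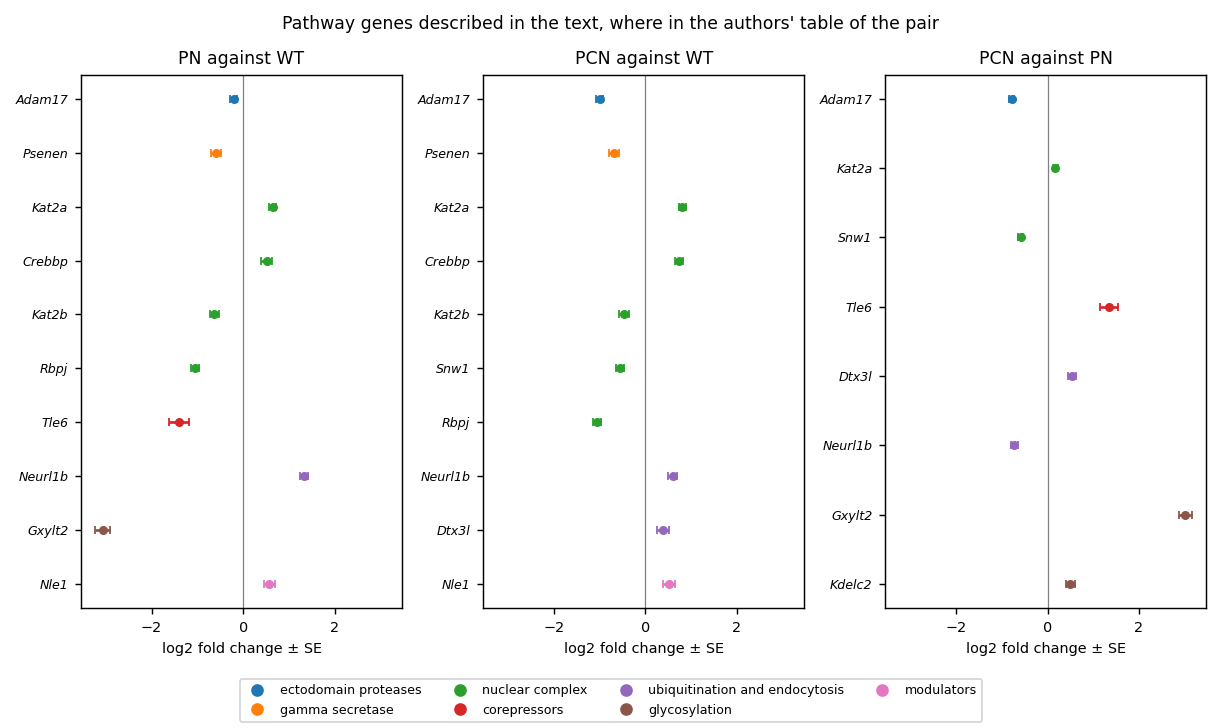
Log2 fold change ± SE of the 13 Notch pathway genes described in the text, where found in the authors' table of that pair, coloured by role. Rbpj lies at -1.05 and -1.06 against WT, and Gxylt2 at -3.06 in PN against WT and 3.01 in PCN against PN.

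Of 25 genes described as Notch-responsive in keratinocytes or other cells, 6 rose and 8 fell in PN, and 5 rose and 10 fell in the libraries labelled PCN against WT. The median of those listed was -0.43 and -0.48. Between the edited groups 8 were higher and 5 lower, with a median of 0.24. The list was written with earlier results of these data known, so its called share is no test. The called genes were 56.0%, 60.0% and 52.0% of the list, beside 36.4%, 36.5% and 23.8% of all genes. Several are also targets of other pathways, among them the cell cycle inhibitor Cdkn1a, a p53 target, which fell from 186 ± 10 CPM to 25.9 ± 2.5 and 34.4 ± 1.4. The repressor Bhlhe40 fell from 452 ± 27 to 170 ± 13 CPM in PN, with 239 ± 29 in the libraries labelled PCN, and Sox9 from 47.6 ± 5.7 to 8.09 ± 0.69 and 9.92 ± 1.1. Klf4, a differentiation factor, fell from 187 ± 28 to 91.9 ± 3.2 CPM in PN and 80.9 ± 4.1 in the libraries labelled PCN. The basal cell factor Trp63 rose from 486 ± 23 to 698 ± 36 CPM in PN and 649 ± 40 in the libraries labelled PCN.

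Id proteins bind and block basic helix-loop-helix factors. Id3, at 5.02 ± 0.60 CPM in WT, rose to 29.2 ± 2.8 CPM in PN (2.55 ± 0.14, adjusted p = 1.2e-08) and 109 ± 21 in the libraries labelled PCN (4.44 ± 0.16, adjusted p = 7.6e-10). Id4 rose from 8.37 ± 0.88 to 15.1 ± 1.4 and 20.7 ± 2.2 CPM. Id1 was at 35.6 ± 0.72 CPM in WT and 39.8 ± 4.6 in PN, and it rose to 149 ± 22 in the libraries labelled PCN (2.07 ± 0.10 against WT, adjusted p = 2.1e-09). Bcl2, the envelope precursor Ivl and the adhesion receptor Cd44 were lower in the libraries labelled PCN than in PN, by -0.35 ± 0.10, -0.45 ± 0.09 and -0.42 ± 0.05. The call of Bcl2 was lost without PCN replicate 2 (adjusted p = 0.066).

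Patterns most like each member's were sought among 5046 protein-coding genes with at least 10 CPM on average, by Pearson correlation of log2(CPM + 1) over the 9 libraries. The 9 points share 3 groups, so a high value mostly restates the group levels, and no p is given. Hes1 was most like the envelope gene Sprr3, the membrane protein gene Emp1 and the glutathione transferase Gsto1 (r = 0.999 for each), whose levels fell far more: Sprr3 went from 692 ± 102 CPM to 44.8 ± 4.0 and 52.3 ± 4.2. Notch1 was most like Cars, a cysteine tRNA ligase, the actin regulator Daam1 and Sipa1l1 (r = 0.99 each). Notch3 was most like Dock6, Rap1gap and Man2b2 (0.992 to 0.995), Notch4 like Fads3, Rnf157 and Eps8l1 (0.99 each), and Nrarp like Mdfi, Shb and Agtrap (0.98 to 0.99). Dll1 was most like Id1, Ikbke and Lgr6 (0.97 to 0.98), and Lfng like Mtcl1 (0.99) and Ahsa1 (0.98). Jag1 was closest to Ercc6, Jag2 to Tcf3, Rfng to 1810055G02Rik and Hes6 to Csrp2 (r = 0.98, 0.99, 0.99 and 0.98).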

How the data were processed

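RNA of 9 libraries was analysed from 3 deposited tables, 1 per pair of groups. Per the file headers, the authors gave raw counts per gene, and the deposited normalized signal is the count divided by 1 size factor per library and pair. FPKM values are the authors', per the file headers. The library sizes they imply are not whole numbers and follow the size factors within 1.02%, so they are effective sizes scaled over the libraries, and true totals are unknown. The log2 fold changes, p-values and adjusted p-values in the tables are the authors', per the file headers. CASAVA, DESeq and GRCm38 (mm10) are named in the submitters' processing notes. Aligner, counter, strand setting and annotation are not given in any source used. Transcripts on the other strand overlap Notch1, Notch3, Notch4, Dll1 and Nrarp in GENCODE M21, and reads from both cannot be told apart.

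Under R 4.3.3, edgeR 4.0.16 was run on each whole table (robust quasi-likelihood test, filterByExpr by group) with the authors' size factors, and with DESeq2 1.42.0 as an alternative. Benjamini-Hochberg adjustment ran over the number of genes the authors adjusted over (17165 for PN and 17300 for PCN, each against WT, and 14758 between the edited groups), recovered from their adjusted p-values. The threshold was 0.05. SE was taken as the log2 fold change divided by the root of the F statistic. Members outside a pair's table have values from a fit over all 9 libraries and were never counted as called. The fits were also run on simulated data with the same spread for every gene and adjustment over the listed genes only. That setting differs from the real data, so no result here rests on it. Alternatives were other scalings, no filter, DESeq2, a replicate block, 1 fit over 9 libraries (with effective sizes, chosen after seeing the data) and leaving out each library.

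Members and lists were chosen with earlier results of these data known. Named were all members, up to 4 pathway and 3 Notch-responsive genes per direction by size of change with 2 CPM or more in the higher group, and for each member up to 3 genes of like pattern. A few genes that this rule names are not reported here. CPM was planned on library totals, which the tables do not give, and uses the effective sizes. Same-numbered WT and PN libraries had correlations of deviation of 0.14 to 0.33, and differently numbered ones -0.35 to 0.06. Same-numbered libraries of PCN with WT (-0.37 to -0.12) and with PN (-0.21 to -0.14) did not deviate together. The differently numbered WT 1 and PCN 3 reached 0.36, so these values cannot tell whether the numbers mark pairs. No label says that they do.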

Additional observations from a re-analysis of the deposited data

How the results depend on the processing

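Calls of members kept their direction in all 350 alternative fits and their side of the threshold in 340. The 10 exceptions were Hes6 and Nrarp, given above, under TMM or DESeq2 scaling on the listed genes, the fits over 9 libraries, or without 1 library. Counts of members called ranged from 8 to 9, from 10 to 10 and from 6 to 6 without 1 library, for PN and PCN against WT and for the edited groups, and fell to 4 for the last in the fits over 9 libraries. Pathway genes called ranged from 18 to 23, from 20 to 28 and from 16 to 17 without 1 library, beside 24, 30 and 17 with all. In PCN against PN they numbered 10 in the fit over 9 libraries with TMM and 10 in that with effective sizes. The cause was not tested. With the replicate block, members called stayed at 9, 10 and 6, with no call of a member changed, and pathway genes called were 24, 26 and 17. DESeq2 size factors computed on the listed genes moved the median log2 fold change against WT by 0.13 in PN and 0.16 in PCN, and every member's direction stayed relative to 0. Of the 33 genes named by pattern, 30 were shared with a smaller pseudocount and 29 with a lower minimum level. Low counts limit Notch4 in the edited groups.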
